A study of Arabidopsis thaliana with 32 samples.

Results

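The comparison described here asks whether the genes of a hybrid Arabidopsis thaliana embryo are expressed at the average of its parents. It uses 8 of the 32 RNA-seq libraries of the study, each made from embryo tissue isolated by laser-capture microdissection (LCM), in which a laser cuts one tissue out of a sectioned seed. The 8 libraries were chosen by their labels: 4 are hybrid, from Col x C24 and its reciprocal C24 x Col, and 4 are selfed, from Col x Col and C24 x C24, with 2 replicates of each cross. Col-0 (Col) and C24 are inbred accessions, plants were grown in a long-day light cycle, and no mutation or chemical treatment is given for any group. The sources used here give neither the age of the embryos nor the number of seeds in a library, and do not say that replicates came from separate plants, so p-values measure the spread between these libraries, which may be technical. Another 8 embryo libraries, from crosses of cytoplasmic-nuclear substitution (CNS) lines, and the 8 endosperm libraries of the standard crosses were used for reference. CNS lines carry the nucleus of one accession with the chloroplasts and mitochondria of the other and are named C24(Col) and Col(C24). The name in brackets is read here as that of the nucleus. At FLC, P5CR and AT5G14840, described below, selfed C24(Col) was nearer Col x Col and selfed Col(C24) nearer C24 x C24. By their titles, 3 of the 4 CNS hybrid embryo libraries have ordinary Col as the other parent: both with Col(C24) named first, and replicate 1 of the group with Col(C24) named second. Replicate 2 of that group is C24(Col) crossed with Col(C24). The mid-parent level of the CNS crosses was nonetheless taken from selfed C24(Col) and selfed Col(C24).

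A gene whose alleles are each expressed in a hybrid as they are in the parents gives an additive level, the arithmetic mean of the parents, called the mid-parent level. A departure from it means that at least one allele is expressed differently in the hybrid and in the pure line. Reciprocal hybrids carry the same nuclear genes and differ in which parent was the mother, which also gives the chloroplasts and mitochondria. Hybrids of Col and C24 are a textbook case of growth vigour, and are known to flower late. They do so in part because C24 brings in an active FRIGIDA (FRI), which raises the flowering repressor FLOWERING LOCUS C (FLC). FRI of Col is inactive.

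The libraries held 14.6 to 33.9 M counted reads (M, mega), with a median of 16.8 M. Embryo marker genes summed to 1600 to 1830 CPM, a library's count scaled to 1 M reads, in the selfed and 1600 to 1740 in the hybrid embryos, against 324 to 622 in the endosperm libraries, so the tissue label fits. Endosperm markers summed to 99 to 226 in the selfed embryos, 144 to 195 in the hybrid embryos and 2310 to 3470 in endosperm. Among the selfed embryos, the Col x Col libraries had the higher sums. Of the 24 endosperm markers measured, 2 (MINI3 and AGL36) were at 0 in all 8 embryo libraries. The others had embryo reads, and the highest were ALE1 and SUC5, with means of 58.85 and 46.9 CPM over these libraries. Seed coat markers summed to 126 to 149 in selfed and 107 to 166 in hybrid embryos, against 364 to 1080 in endosperm. Allele reads of organelle genes were 0.0895% and 0.0424% C24 in the Col x C24 embryos and 99.4% and 99.9% in the C24 x Col embryos, so the mother is named first in these labels.

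Hybrid embryos expressed most genes close to the mid-parent level, with 82.9% of estimates within 0.25 of it on the log2 scale. Of 18212 genes tested, 1 was called, at an adjusted p under 0.05 in edgeR's quasi-likelihood test with Benjamini-Hochberg adjustment, which is 0.00549% of the genes. It was the pseudogene AT5G14840, which was lower in the hybrids. In such tissue samples, fewer cells that express a gene and less RNA per cell cannot be told apart. At an unadjusted p under 0.05 there were 543 genes, 231 higher and 312 lower. They were 2.98% of those tested, fewer than uniform p-values would give at that threshold. A Wald test with DESeq2's coefficients and dispersions and normal quantiles called 7 genes on the same contrast. Among them were AT5G14840, FLC and P5CR, the gene for the last enzyme of proline synthesis. FLC stood near 2-fold above the mid-parent level and P5CR near 2-fold below it, and neither passed the test against selfed C24. None of these 3 genes was named by a fixed rule for calls, and they were singled out after their values were seen.

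The data limited departures to small sizes for most genes. The median log2 difference between hybrid and mid-parent was -0.0023, the middle 90% of genes lay between -0.44 and 0.32, and the median standard error (SE) was 0.12. The 95% interval of the difference lay within 2-fold on either side for 15137 genes, or 83.1%, and within 1.5-fold for 12740. Precision followed the level of the gene. Among 9897 genes of 10 to 100 CPM, 98.9% had an interval within 2-fold and 95.7% within 1.5-fold, but none of the 1484 genes under 1 CPM had, so departures of 2-fold could not be bounded there. For 4 genes the interval lay wholly beyond 2-fold, 2 of them under 1 CPM.

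**Figure D1:**
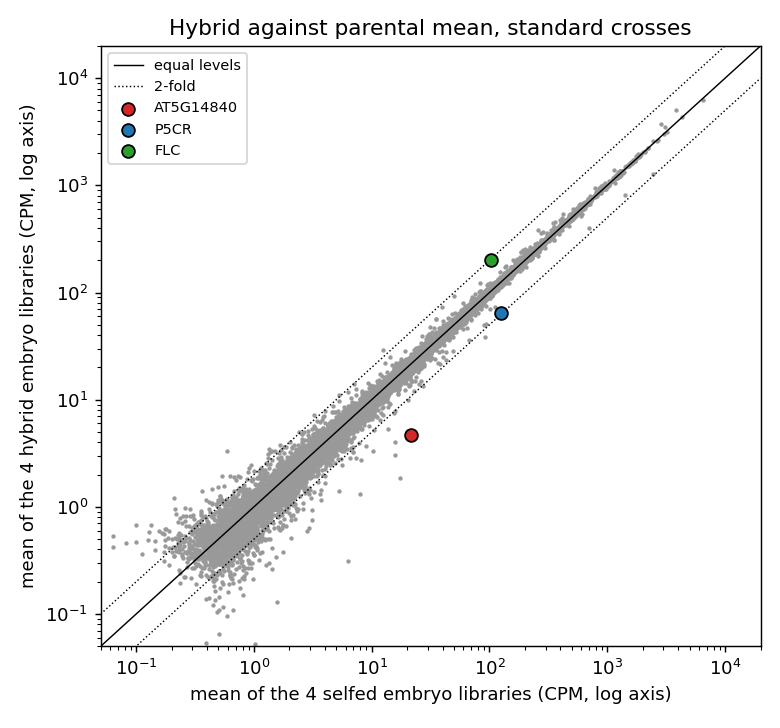
Each point is a gene, with the mean of the 4 selfed embryo libraries on the x axis and the mean of the 4 hybrid embryo libraries on the y axis, both in CPM on log axes. Nearly all points follow the line of equal levels, with a wider band at low CPM, while the hybrid mean is 21.6% of the selfed mean for AT5G14840, 50.9% for P5CR and 195% for FLC.

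AT5G14840, a transcribed pseudogene on chromosome 5 (4798329 to 4800738, minus strand, TAIR10.1), had 43.4 and 37.4 CPM in the Col x Col embryos and 2.28 and 3.12 CPM in the C24 x C24 embryos. The hybrids had 6.04 and 4.18 CPM from Col x C24 crosses, with 3.58 and 4.79 CPM from the reciprocal cross. All 4 hybrid libraries were thus far below Col and a little above C24, and the groups did not overlap. The hybrid mean was 4.65 ± 1.05 CPM (SD, n = 4) where the mid-parent level was 21.5, a log2 difference of -2.20 ± 0.19 (SE; 95% interval -2.64 to -1.76; edgeR adjusted p = 0.016). Against Col the difference was -3.11 (adjusted p = 6.9e-05) and against C24 it was 0.78 and did not pass the test (adjusted p = 0.157). The call was lost without the replicate block (adjusted p = 0.0565) and on leaving out either Col x Col library, either Col x C24 library or the first C24 x Col library (adjusted p from 0.0516 to 0.226), while the estimate then stayed between -2.41 and -2.03. In the CNS crosses it had 30.6 and 36.6 CPM in selfed C24(Col), 1.41 and 2.59 in selfed Col(C24), and 2.75, 3.09, 2.28 and 6.86 in the hybrids, a departure of -2.33 ± 0.27 (adjusted p = 0.0985).

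P5CR (AT5G14800, chromosome 5, 4785960 to 4787996, minus strand) lies 10332 bases from AT5G14840, with 3 annotated genes between. It had 188 and 190.4 CPM in Col x Col, 45.4 and 79.9 in C24 x C24, 59.6 and 67.8 in Col x C24 hybrids, and 53.7 and 75.2 in their reciprocals. All hybrid libraries lay within the range of the C24 libraries and far below Col. The hybrid mean of 64.1 ± 9.38 CPM (SD, n = 4) was 50.9% of the mid-parent level of 125.9 CPM, a log2 difference of -0.98 ± 0.13 (SE; 95% interval -1.27 to -0.69), which did not pass edgeR's test (adjusted p = 0.163) and passed DESeq2's (adjusted p = 6.43e-10). It was lower than Col by edgeR (log2 -1.58, adjusted p = 0.00058) and differed from C24 by 0.06 (adjusted p = 0.896). The CNS hybrids had 49.5, 60.04, 56.7 and 80.2 CPM, where the selfed lines had 182 and 187 in C24(Col) and 48.9 and 77.7 in Col(C24), a departure of -1.02 ± 0.11 (adjusted p = 0.0985). The 1 tested gene between the pair, AT5G14830, and the flanking genes AT5G14790 and AT5G14850 had edgeR adjusted p-values of 1.00. The flanking genes departed by 0.06 ± 0.10 and -0.06 ± 0.09 (SE). AT5G14830, at a mean of 1.47 CPM, departed by -0.77 ± 0.41, so a fall like that of P5CR is not excluded there.

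The pseudogene carries copies of parts of P5CR, so the counts of the pair may not be independent and each is uncertain. They share 15 runs of at least 20 identical bases, which cover 457 of the 2037 bases of P5CR, or 22.4%, and 17.5% of AT5G14840. The longest run has 207 bases and lies in the 5′ untranslated exon of P5CR. The run below is shown because reads that lie wholly within it cannot be assigned to one gene by sequence. It has 123 bases and occurs at 2 places in the genome, chr5:4786739-4786861 in P5CR and chr5:4799583-4799705 in the pseudogene (minus strand, RefSeq, TAIR10.1). Lower case marks 72 bases of a P5CR intron and capitals mark the 51 coding bases that follow.
P5CR and AT5G14840 shared run: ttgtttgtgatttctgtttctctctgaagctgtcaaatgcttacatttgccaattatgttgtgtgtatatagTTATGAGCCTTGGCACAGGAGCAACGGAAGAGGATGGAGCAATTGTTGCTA
Reads counted for AT5G14840 came to 23.1% and 19.7% of those for P5CR in the Col x Col libraries, 5.01% and 3.90% in C24 x C24, and 6.17% to 10.1% in the hybrids. The ratio was thus not fixed across libraries. How far shared reads moved between the genes was not tested.

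FLC (AT5G10140, chromosome 5, 3173382 to 3179448, minus strand) encodes a MADS-box protein that represses flowering. It had 29.5 and 41.1 CPM in Col x Col, 175 and 169 in C24 x C24, 177 and 233 in Col x C24 hybrids, and 179 and 222 in their reciprocals. All 4 hybrid libraries were above both C24 libraries and far above Col. The hybrid mean of 203 ± 28.7 CPM (SD, n = 4) was 195% of the mid-parent level of 103.7 CPM, a log2 difference of 0.95 ± 0.11 (SE; 95% interval 0.71 to 1.19), which did not pass edgeR's test (adjusted p = 0.114) and passed DESeq2's (adjusted p = 1.99e-14). The hybrids were higher than Col (log2 2.53, adjusted p = 2.7e-05 by edgeR) and differed from C24 by 0.22 (adjusted p = 0.448). In the CNS crosses FLC had 50.1 and 47.5 CPM in selfed C24(Col), 242 and 192 in selfed Col(C24), and 218, 229.7, 262 and 217 in the hybrids, a departure of 0.81 ± 0.10 (adjusted p = 0.209). With all 16 embryo libraries in 1 fit, the departure of FLC in the standard crosses was 0.96 and passed (edgeR adjusted p = 0.0208), as did that of AT5G14840 (adjusted p = 0.0208), and that of P5CR did not (adjusted p = 0.0959).

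Reads that cover a sequence difference between the accessions show which allele gave these levels. Of the FLC allele reads, 203 were Col and 159 C24 in the first Col x C24 library, 324 and 285 in the second, 210 and 142 in the first C24 x Col library, and 581 and 363 in the second. The Col allele thus gave more reads than the C24 allele in all 4 libraries, a share of 57.6% ± 3.72 (SD, n = 4), although Col made up 17.0% of the summed level of the selfed parents. Splitting the hybrid level by these shares gave 117 ± 16.7 CPM for the Col allele, 6.61-fold the 17.65 CPM expected of a single Col copy, and 86.0 ± 16.1 CPM for the C24 allele, where 86.1 CPM was expected. P5CR had 52 Col and 28 C24 allele reads in the first Col x C24 library, 32 and 57 in the second, 38 and 45 in the first C24 x Col library, and 91 and 72 in the second. Its Col share was 50.6% ± 12.6, against 75.1% in the summed parents, and the libraries fell on both sides of equal shares. The split gave 32.4 ± 9.26 CPM for the Col allele, 2.92-fold below the 94.6 CPM expected, and 31.6 ± 9.37 for the C24 allele, where 31.3 was expected. In both genes the mean of the C24 allele lay near its expected level and that of the Col allele did not, with no test made on the shares of single genes. AT5G14840 was not analysed by allele here, and how far its reads entered the P5CR levels and allele shares was not tested.

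**Figure D2:**
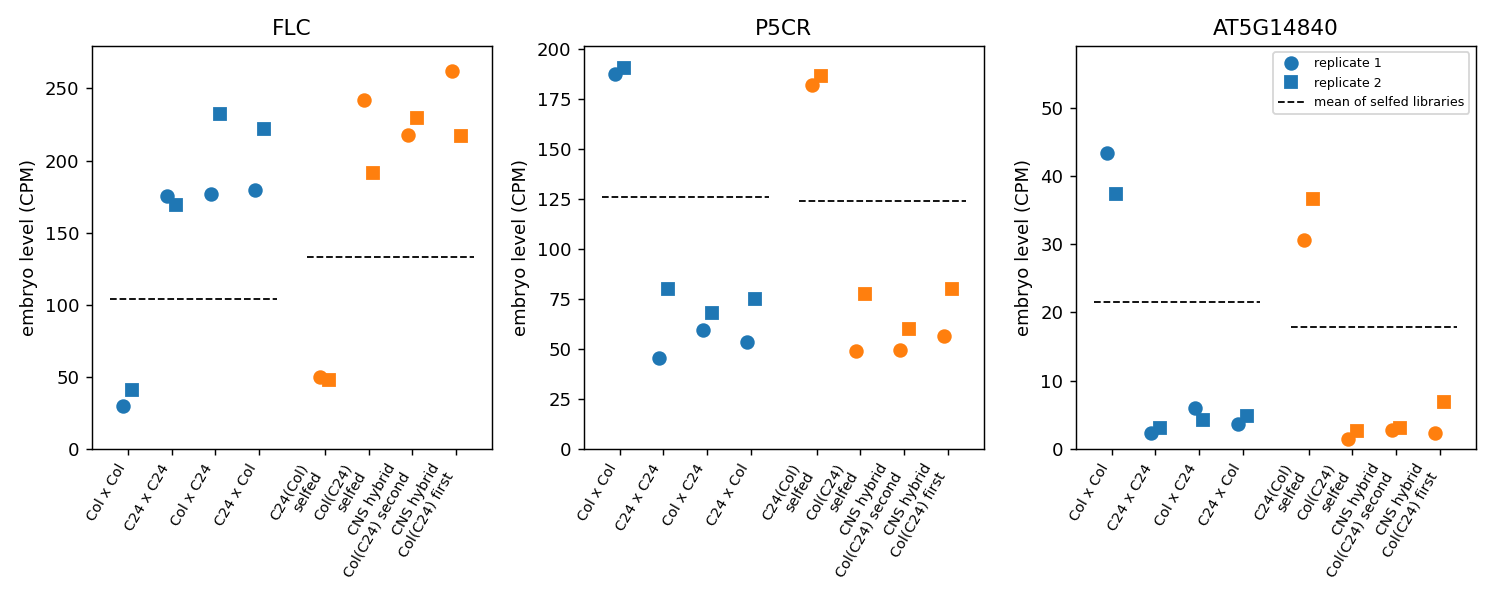
Embryo CPM of FLC, P5CR and AT5G14840 in each library, standard crosses in blue and CNS crosses in orange, circles for replicate 1 and squares for replicate 2, with the mean of the selfed libraries as a dashed line. In both sets the hybrids lie beside the selfed line with high FLC (169 to 175 CPM in C24 x C24) and low P5CR and AT5G14840, not at the dashed line.

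FRI, the activator of FLC, had 12.7 and 7.16 CPM in Col x Col, 15.9 and 12.8 in C24 x C24, 11.2 and 11.3 in Col x C24 hybrids, and 12.5 and 11.4 in their reciprocals. Its departure was -0.04. The known lesion of the Col allele of FRI is in its coding sequence, and the part of FRI in these FLC levels was not tested. Of the 17 tested genes of the FLC group and of flowering, none was called by edgeR and FLC alone by DESeq2. MAF2, a relative of FLC that also delays flowering, had a departure of 0.20 and SVP, a partner of FLC, one of -0.39, with unadjusted p-values of 0.0287 and 0.038. FVE, a component of the autonomous pathway that lowers FLC, had 298 and 294 CPM in Col x Col, 258 and 315 in C24 x C24 and 267 to 328 in the hybrids.

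The other 4 genes that DESeq2 called did not pass edgeR (adjusted p = 1.00 each). AT4G23680 was 1.08 and 0.753 CPM in Col x Col, 0 and 0.529 in C24 x C24, and 3.89, 4.03, 3.28 and 2.09 in the hybrids, all above every selfed library. Its log2 difference was 2.48, and the CNS crosses gave 2.50. The pseudogene AT3G50625 was 50.5 and 57.9 CPM in C24 x C24, at most 0.203 in Col x Col, 9.71 and 5.12 with Col as mother and 22.8 and 16.3 with C24 as mother, a difference of -1.06, with -0.90 in the CNS crosses. AT1G04660 (0.42) and the ribosomal RNA gene AT3G41979 (-1.51) had CNS departures of -0.0014 and -0.18. Among genes with an interval wholly beyond 2-fold, the pseudogene AT1G47520 had 3.59 and 2.70 CPM in Col x Col, 0 in both C24 x C24 libraries and 0 to 0.276 in the hybrids.

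Each reciprocal hybrid was also set against the mid-parent level on its own. Neither Col x C24 (0% of 18212 genes called) nor C24 x Col (0%) had a call in edgeR, with 673 and 1034 genes at an unadjusted p under 0.05 and 17 and 22 calls in DESeq2. FLC, P5CR and AT5G14840 were singled out on the average of both directions, which share the selfed libraries, so some likeness is built in. FLC departed by 0.96 with Col as mother and 0.94 with C24 as mother, P5CR by -0.98 in both, and AT5G14840 by -2.08 and -2.34. The 3 genes thus gave like estimates in both directions of the cross. FTM1, an enzyme that inserts double bonds in fatty acids in the stem cells of the shoot tip, did not. It had 85.4 and 63.0 CPM with Col as mother and 21.6 and 18.0 with C24 as mother. The selfed libraries lay between, at 24.9 to 42.7. Neither of its departures passed edgeR's test (adjusted p = 0.0758 and 0.427), and the directions were not tested against each other. FTM1 too was singled out after its values were seen. In the CNS hybrids it had 87.4 and 69.8 CPM with Col(C24) named second and 87.7 and 76.5 with Col(C24) named first.

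No gene passed edgeR's test beyond both parents (0%), with 37 genes at an unadjusted p under 0.05 against both, 17 above and 20 below, and 1 call in DESeq2, AT1G04660. Among replicate 1 libraries it had 2033 and 2179 CPM in the selfed and 3493 and 2444 in the hybrid embryos, and among replicate 2 libraries 3487 and 3693 in the selfed and 4707 and 4410 in the hybrid embryos. The hybrids were thus above the selfed libraries within each replicate number, and the groups overlapped only across numbers. All 4 hybrid libraries lay above all 4 selfed libraries for 62 genes (0.34%) and below them for 57 (0.313%). In the CNS crosses, 53.2% of the 62 had an estimate above the mid-parent level, against 48.7% of all genes, and 68.4% of the 57 had one below it, against 51.3%. The hybrids differed from selfed Col at 577 genes (3.17%) and from selfed C24 at 523 (2.87%), whereas the selfed accessions differed from each other at 3206, of which 1669 (9.16% of those tested) were higher in Col and 1537 (8.44%) lower.

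Where the parents differed, the hybrids lay midway. To choose such genes without the libraries under comparison, 866 genes were taken that were called between the selfed CNS lines with an absolute log2 difference of at least 1. On a scale with C24 x C24 at 0% and Col x Col at 100%, the median position was 49.5% with Col as mother and 49.7% with C24 as mother. Of the 866 genes, 656 (75.8%) and 658 (76.0%) lay between 25% and 75%. Above 100% lay 29 and 44, and below 0% lay 49 and 39. Genes chosen in the CNS lines need not differ as much between the standard parents. Within single libraries the median ran from 48.0% to 50.6%.

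**Figure D3:**
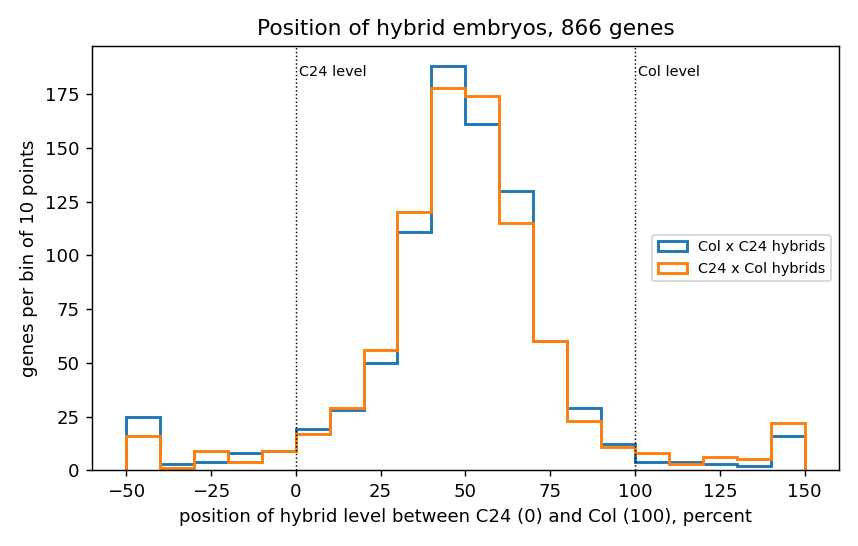
Histogram of 866 genes by the position of the hybrid mean between the C24 (0%) and Col (100%) means, in bins of 10 points, for the Col x C24 and C24 x Col hybrids. Both distributions peak near the middle (medians 49.5% and 49.7%), and values beyond the ends of the axis are counted in the end bins.

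Single genes with large CNS differences, chosen for display after their values were seen, give examples. MAF1, also known as FLM, another flowering repressor of the FLC family, had 24.8 and 25.8 CPM in Col x Col, 1.26 and 0.647 in C24 x C24, and 10.1, 13.0, 13.6 and 14.0 in the hybrids, a departure of -0.05. RPP5, a gene of a disease resistance cluster, had 2.1 and 2.7 CPM in Col, 24.2 and 33.3 in C24 and 11.4 to 19.5 in the hybrids. GGT2, a gamma-glutamyl transferase gene, had 18.5 and 24.1 CPM in Col, 125 and 149 in C24 and 70.8 to 88.8 in the hybrids. All 3 had hybrid libraries wholly between the parents. SADHU1-1, a retroelement-derived pseudogene, had 53.6 and 74.8 CPM in Col, 0 in both C24 libraries and 23.61 to 36.5 in the hybrids, though members of its family are alike in sequence and their counts uncertain. MRD1 was less regular. Its absolute log2 difference was 6.13 between the selfed CNS lines but only 0.82 between the standard parents, with 109 and 104 CPM in Col and 58.8 and 62.0 in C24. The hybrids had 73.5 and 103 CPM with Col as mother and 68.4 and 75.5 with C24 as mother. The positions of MRD1 on this narrow scale were 60.4% and 25.3%, and 1 hybrid library was near the Col level. The seed storage gene SESA1 sat somewhat nearer Col, at 8.0 and 5.8 CPM in Col, 117 and 125 in C24 and 35.0 to 53.9 in the hybrids, a departure of -0.48 ± 0.14 that did not pass (edgeR adjusted p = 1.00).

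The choice of mean decides what is called. Against the mean of the parents' logarithms, edgeR called 116 genes (0.637%), 114 higher and 2 lower. Of the 116, all were called between the parents and 110 differed by an absolute log2 of at least 2 between the selfed CNS lines. Their median departure from the arithmetic mean was -0.0023. Across genes with a CNS difference over 4, the median departure was 1.93 from the log mean and -0.07 from the arithmetic mean, while for differences under 0.25 both were under 0.01. By its construction the arithmetic mean lies above the log mean wherever parents differ.

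**Figure D4:**
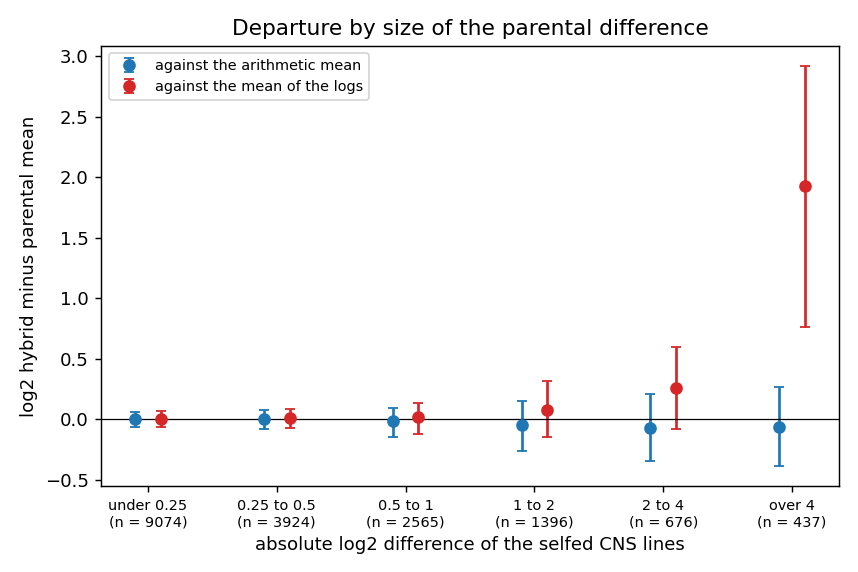
Median log2 difference between hybrid and parental mean (y axis; bars, interquartile range) for genes in classes of absolute log2 difference between the selfed CNS lines (x axis). Against the arithmetic mean the medians stay between -0.07 and 0.0016, and against the mean of the logs they reach 1.93.

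Allele reads gave a second view of the same genes. The 4 hybrid embryos held 2.37 to 5.37 M nuclear allele reads, and 9554 genes had at least 10 in each, with a median Col share of 51.9%. Of the 866 genes above, 439 had enough reads. In these the Col share in hybrids differed from the Col share of the summed parental levels by a median of 5.74 percentage points, beside a median SD between libraries of 6.23 points. The allele that was higher in its own parent gave more reads in the hybrid in 402 of the 439 (91.6%), and the share was nearer the parental share than equality in 335 (76.3%). It was over 25 points away in 20 genes, of which FLC was farthest. The next was ANN6, an annexin gene, whose Col share was 50.6% in hybrids and 88.3% in the parents.

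**Figure D5:**
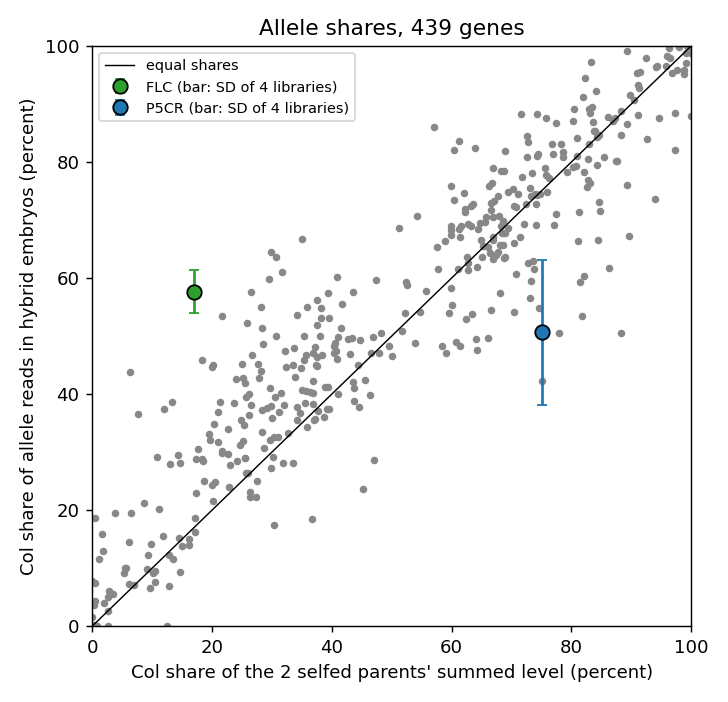
Each point is 1 of 439 genes, with the Col share of the summed selfed levels on the x axis and the mean Col share of allele reads over 4 hybrid embryos on the y axis, in percent. Most points follow the line of equal shares, FLC (57.6% against 17.0%) lies far above it, and P5CR (50.6% against 75.1%) lies below it, with bars for the SD over 4 libraries.

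Gene lists for embryo development, growth and stress held 0 calls in edgeR and 1 in DESeq2 (FLC), against the 0.00549% of all genes. Between 0 and 3 tested members of each list had an unadjusted p under 0.05, against 2.98% of all genes tested. Median departures of the 16 lists ran from -0.18 for the circadian clock to 0.09 for salicylic acid and defence, against -0.0023 for all genes. Of 32 cell cycle and replication genes, 21 had estimates below and 11 above the mid-parent level, between -0.31 and 0.18. KN, a syntaxin of the dividing cell plate, had 358 and 374 CPM in Col, 249 and 273 in C24 and 264 to 403 in the hybrids. Of 27 embryo markers, 19 were lower by estimate (median -0.04). MP, an auxin response factor needed for the embryonic root, had 276 and 265 CPM in Col, 207 and 202 in C24 and 214 to 243.5 in the hybrids.

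Nuclear photosynthesis genes had estimates above the mid-parent level in 30 of 34 (median 0.07), against 8952 of the 18212 genes tested. Of the 34, 22 were called between the selfed parents, all lower in Col. LHCB1.3, a light-harvesting protein gene, had 2986 and 3348 CPM in Col, 2973 and 3063 in C24, and 3310 to 3816 in the hybrids. Its difference of 0.18 had an unadjusted p of 0.0339. RBCS1A, the small subunit of the carbon-fixing enzyme Rubisco, had 2163 and 1993 CPM in Col, 2923 and 2632 in C24 and 2302 to 2742 in the hybrids. Among seed storage and oil genes (19 tested, median 0.0093), FAD2, a fatty acid desaturase, departed by -0.03 and BCCP2, a subunit of the first enzyme of fatty acid synthesis, by 0.05. Genes of RNA-directed DNA methylation (28 tested, median -0.02), Polycomb (12, -0.03), auxin (14, 0.03), seed size (11, -0.01), late maturation and abscisic acid (10, -0.04) and low oxygen and sugar starvation (13, -0.09) had medians near that of all genes. ABI4, a regulator of abscisic acid response, had 28.7 and 20.7 CPM in Col, 19.8 and 15.8 in C24 and 11.7 to 20.3 in the hybrids, a difference of -0.36 (unadjusted p = 0.0055; edgeR adjusted p = 1.00). The markers of endosperm (16 tested, median -0.12) and seed coat (17, 0.03) held no call. Between the selfed parents, however, 9 and 5 of them were called, all higher in Col, against 9.16% of all genes. Scaled among the embryo libraries, the tested endosperm markers summed to 220.9 and 228.5 CPM in Col x Col and 150.5 and 100.3 in C24 x C24. The part of other tissue in these levels was not tested.

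Heat stress genes could not be placed. Their summed level ran from 349.5 to 8629 CPM in the selfed and from 2123 to 4883 in the hybrid embryos, and none of the 17 had an interval within 2-fold. HSP70, a chaperone, had 514 and 61.7 CPM in Col and 382 and 1243 in C24, so the C24 replicates differed by more than any pair of group means. Organelle genes were also uneven. The 79 tested chloroplast-encoded genes had a median departure of -0.22 and the 25 mitochondria-encoded a median of -0.62. Their summed levels were 1808 to 5948 and 649 to 4976 CPM in the selfed libraries. In the hybrid libraries they were 3303 to 4614 and 935 to 1714. Both selfed maxima came from the first Col x Col library, while the second had 2964 and 1818 CPM. Libraries were selected for poly-A RNA, and the part of that selection in these values was not tested.

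The CNS crosses had no call either. No gene passed edgeR's test against their own mid-parent level (0% of 19320; 1533 at an unadjusted p under 0.05), and none differed in its departure between standard and CNS crosses (0% of 19942; 851 unadjusted). DESeq2 was not run on these comparisons. For FLC the departures differed by 0.15 ± 0.15, for P5CR by 0.04 ± 0.20 and for AT5G14840 by 0.12 ± 0.37 (SE; edgeR adjusted p = 1.00 each). Some lists had other medians in the CNS crosses. The median CNS departure was 0.90 for chloroplast-encoded and 0.71 for mitochondria-encoded genes, of the opposite sign to the standard crosses. It was 2.13 for heat stress genes and 0.42 for nuclear photosynthesis. If the mother is named first there too, CNS hybrids with an ordinary Col parent carry Col organelles, and the remaining library those of C24. Organelle origin was then not balanced as in the standard hybrids, and its part in the organelle medians was not tested. The standard and CNS crosses share no library.

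In the endosperm of the standard crosses, 72 of 18797 genes departed from the mid-parent level by the same test (0.383%), 65 higher and 7 lower, with the arithmetic mean of the parents as reference there too. FLC departed by 0.08 ± 0.29 in endosperm, P5CR by -0.40 ± 0.15 and AT5G14840 by -0.92 ± 0.35, with adjusted p-values of 0.956, 0.398 and 0.404. The difference of departures between embryo and endosperm was 0.89 ± 0.35 for FLC, -0.55 ± 0.21 for P5CR and -1.25 ± 0.34 for AT5G14840, and none passed (edgeR adjusted p = 0.577, 0.565 and 0.382). It passed at 2 of 20235 genes (0.00988%; 1625 at an unadjusted p under 0.05), AT2G34020 and UGT78D2, and both were near the mid-parent level in embryo and away from it in endosperm.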

How the data were processed

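The deposited files used are raw read counts per gene, 1 table per library, and reads per allele and gene for the hybrids. Per the submitters' processing notes the tools were Trimmomatic, STAR, HTSeq and edgeR with TAIR10, with roles, versions and strand setting not given in the sources used here; reads of C24 may map less well to a Col reference. Per the labels' protocols, RNA came from laser-captured tissue and libraries were poly-A selected. Rows that name no gene (2.51 to 7.01% without a feature) were left out. Of 33602 genes, 32835 matched RefSeq names.

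From the counts, edgeR 4.0.16 (R 4.3.3, limma 3.58.1) with TMM scaling and filterByExpr (minimum count 10) fitted 4 groups with the replicate number as a block; the departure, log2 of the mean hybrid level minus log2 of the mean selfed level, was tested by a linearised constraint, and called at an adjusted p of 0.05. DESeq2 1.42.0 served as an alternative. Its coefficients and dispersions entered a Wald test of the same linearised contrast, with normal quantiles that make no allowance for few libraries. From the same counts it gave 0.949 ± 0.108 for FLC and -0.991 ± 0.133 for P5CR (SE), near the edgeR values. The test was tested on simulated data. Same-numbered libraries deviated together (correlations of 0.126 to 0.456 over 6 pairs of crosses), so the block was kept. CPM printed are scaled by TMM. Named genes were to be the called genes with a symbol and largest difference, and of lists without a call the 2 with the highest CPM; the first part names none. The members and lists were chosen with earlier results of these data known. Alternatives were other scalings, filters, means and tests, in silico mid-parent libraries, and leaving out each library. Intervals and allele shares cover no mapping error.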

Additional observations from a re-analysis of the deposited data

Results flagged for a closer look

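The departure from the mid-parent level differed between embryo and endosperm of the standard crosses, by a test of the difference itself, for 2 genes. For AT2G34020 the difference, embryo minus endosperm, was 2.85 ± 0.34 on the log2 scale (SE; edgeR adjusted p = 0.0314). Its embryo levels were 43.2 and 32.6 CPM in Col x Col, 30.5 and 22.2 in C24 x C24 and 23.0 to 33.1 in the hybrids, a departure of -0.19. In endosperm it had 2.52 and 0.822 CPM in Col x Col, 3.17 and 1.16 in C24 x C24 and 0 to 0.729 in the hybrids, a departure of -3.08 that rests on few reads. For UGT78D2, a flavonoid glucosyltransferase gene, the difference was -1.24 ± 0.15 (edgeR adjusted p = 0.0412). Its embryo libraries lay between 21.7 and 29.6 CPM in all 4 crosses, a departure of 0.01. In endosperm the C24 x Col hybrids had 72.3 and 56.3 CPM, and the other crosses 14.9 to 26.7, a departure of 1.27. Both calls were lost without the replicate block, and on leaving out any 1 of the 8 embryo libraries.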

How the results depend on the processing

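The 1 call against the mid-parent level became 0 with no replicate block, 3 with no filter, 2 with 16 libraries in the fit, 3 with in silico mid-parent libraries, 7 with DESeq2 and 116 against the geometric mean. It became 3 (AT5G14840, FLC and P5CR) for the departure averaged over standard and CNS crosses, an alternative chosen after seeing the data. Leaving out 1 library gave 0 to 3 calls. The 0 calls of Col x C24 became 12 with no filter, 17 with DESeq2, 36 in silico, 90 against the geometric mean and 0 to 29 with 1 library left out. Those of C24 x Col became 6, 22, 39, 126 and 0 to 30 in the same order. Beyond both parents, DESeq2 called 1, and 0 to 2 were called with 1 library left out. The CNS count of 0 became 3 with no filter, 161 against the geometric mean and 0 to 97 with 1 library left out. The difference of standard and CNS departures had 1 call against the geometric mean and 0 with any library left out. The 2 calls between embryo and endosperm became 0 with no replicate block, 1 with library totals, 8 with no filter, 18 against the geometric mean and 0 to 296 with 1 library left out, the most without the second C24 x C24 endosperm library. The cause was not tested.

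Positions and allele shares moved by less than their spread under each alternative run. Of 1043 values for 58 named genes under alternatives, 1007 kept their side of the threshold, 23 passed newly and 6, all of AT5G14840, no longer passed. Among the 1007, 95 values of 37 genes changed sign without passing; HSP70, for one, ran from -0.77 to 1.40 with 1 library left out. The other 7 passed with the opposite sign, all against the geometric mean: 2.14 for AT3G50625, 13.5 for SADHU1-1 (a fitted value that depends on the fit, with C24 at 0), 3.53 for Sadhu4-2, 1.36 for MAF1, 0.66 for HSD2, 1.26 for SADHU1-3 and 0.54 for GGT2. Departures of AT5G14840 ranged from -2.41 to -1.17, of FLC from 0.77 to 1.37 and of P5CR from -1.15 to -0.76. With 2 replicates a cross, and no interval within 2-fold for any gene under 1 CPM, departures of such genes were not bounded.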
